A study of Vitis vinifera with 27 samples.

Results

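Berries of the table grape cultivar Italia were compared with berries of Xiangfei at EL36, the stage on the E-L scale at which veraison is complete and sugar is still rising. The comparison was fixed by cultivar and stage and covered 6 of the 27 libraries of the series, with 3 libraries of each cultivar. Both are Vitis vinifera cultivars with a Muscat aroma. Per the methods of the study, Xiangfei has a strong aroma and a green to golden skin, and Italia has a moderate aroma and ripens in mid to late season. The other libraries come from EL35 (onset of colouring and softening), EL38 (harvest) and another cultivar, Zaomeiguixiang, with a purple-reddish skin. Whole berries from vines grown under a plastic cover were pooled into each replicate without further treatment. At EL36 the berries of Italia had less soluble solids than those of Xiangfei in the measurements of the study, so a difference between cultivars and a difference in ripeness cannot be told apart here.

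At veraison a grape berry softens, takes up hexoses through sugar transporters, stops storing malate in its vacuoles and begins to use it. Abscisic acid, made from carotenoids by 9-cis-epoxycarotenoid dioxygenases (NCED), is known as a hormone of this transition. Pathogenesis-related (PR) proteins, such as thaumatin-like proteins and chitinases, build up in ripening grapes, and Muscat aroma rests on monoterpenes made from precursors of the plastid MEP pathway.

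Each library held between 22728833 and 24673497 expected counts, the fractional read counts that RSEM assigns to genes, and the level of a gene is given as FPKM, which scales the fragments to transcript length and to the fragments of the library. Transcripts typical of ripening berries (thaumatin-like and grip proteins, polygalacturonases, expansins, hexose transporters and chitinases, 143 genes in the files) summed to between 90180 and 190400 FPKM in Xiangfei and between 144200 and 193700 FPKM in Italia. Both groups thus carried berry transcripts, but these sums cannot tell EL36 from the other stages. The match by words also took in a polygalacturonase inhibitor. Xiangfei replicate 1 stood apart. Its 10 most abundant genes took 13.1% of its counts, against 22.5 to 28.51% in the other 5 libraries. Its mean correlation with the other Xiangfei libraries, on log2(FPKM + 1) across genes, was 0.879, while the Italia libraries correlated with each other at 0.957 to 0.96. Pairs within Xiangfei ran from 0.878 to 0.945 (median 0.88), and pairs across the cultivars from 0.845 to 0.943 (median 0.889). By this measure the Xiangfei libraries were about as unlike each other as they were unlike Italia. Genes are not independent replicates, and these values only describe the libraries. For genes whose call changed without Xiangfei replicate 1, both values are given.

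Of 16765 genes tested with edgeR's quasi-likelihood test, 69 were higher in Italia and 146 were lower at a p of at most 0.05 after Benjamini-Hochberg adjustment. These are 0.412% and 0.871% of the genes tested, and both directions together came to 1.28%. The fold changes of the 215 genes were large, with a median log2 fold change of 4.64 among the higher genes and -5.23 among the lower ones, and a smallest size of 2.05. The FPKM values of the cultivars did not overlap for these 215 genes, which were picked for their difference, nor for 23.1% of all genes tested. The median over all genes tested was -0.05. At the stricter threshold used in the study (a log2 fold change of at least 1 in size and an adjusted p of at most 0.001) edgeR called 0 genes, while 1046 higher (6.24%) and 1727 lower genes (10.3%) had an unadjusted p under 0.05, 16.5% together. DESeq2 called 130 higher (0.692%) and 440 lower genes (2.34%) at that same threshold, and 483 higher (2.57%) and 1298 lower genes (6.91%) at an adjusted p of at most 0.05, the threshold of the DESeq2 counts below. Without Xiangfei replicate 1 the edgeR test called 299 higher (1.73%) and 754 lower genes (4.37%), 6.1% together, which held all 69 of the higher genes and 145 of the 146 lower ones. Without any 1 of the Italia libraries no more than 10 higher and 11 lower genes were called, and the fewest, 2 and 2, came without Italia replicate 3. Every one of the 215 genes kept its direction in each of these fits. That is no separate evidence, since the genes were picked for their difference in these same libraries.

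**Figure D1:**
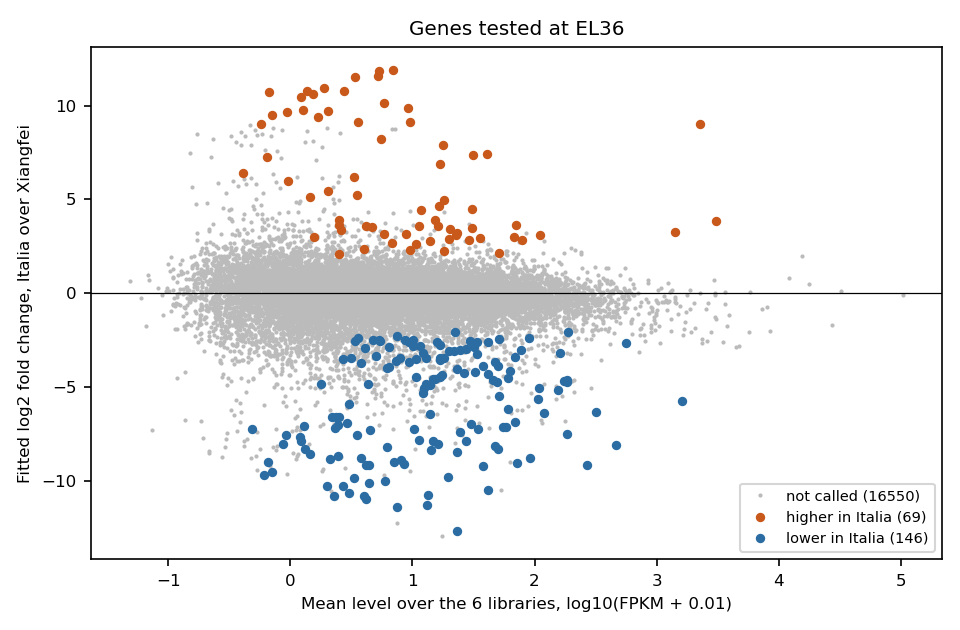
Fitted log2 fold change of Italia over Xiangfei at EL36 (vertical axis) against the mean level of the gene over the 6 libraries (horizontal axis, log10 of FPKM + 0.01), with 1 point for each of 16765 genes. The 69 genes called higher in Italia are orange, the 146 called lower are blue, and the remaining 16550 are grey.

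Several of the most abundant genes that differed encode PR and ripening-related proteins, and these were lower in Italia. LOC100255405, a PR-4 protein of a family that binds chitin, had 2873, 2633 and 3919 FPKM in the Xiangfei libraries and 41.8, 165 and 11.2 FPKM in Italia. The lowest Xiangfei library lay far above the highest Italia library, and the log2 fold change was -5.76 (SE, the standard error derived from the test, 1.03, adjusted p = 0.0398, edgeR). GRIP61, named for its rise in ripening grape berries, had 1485, 794 and 509 FPKM in Xiangfei and 1.53, 4.81 and 5.13 FPKM in Italia. Its log2 fold change was -8.09 (SE 0.64, adjusted p = 0.00272, edgeR). LOC100232986, a class I beta-1,3-glucanase that cleaves glucans of fungal walls and callose, had 1132, 65.2 and 429 FPKM in Xiangfei and 0.55, 2.12 and 0.32 FPKM in Italia. Its level in Xiangfei varied more between libraries than that of GRIP61, yet none of the Italia libraries came near the lowest of them, and the log2 fold change was -9.15 (SE 1.23, adjusted p = 0.0137, edgeR). The remaining called member of the PR list, LOC100244758 (a relative of the allergen Pru av 1), had 43.4, 0.81 and 4.03 FPKM in Xiangfei. Over the 3 Italia libraries it had 1 count, a ratio of 860 with a 95% counting interval of 154 to 34000. Its log2 fold change was -8.91 (adjusted p = 0.0499, edgeR) with all libraries and -6.87 (adjusted p = 0.0603, edgeR) without Xiangfei replicate 1. The call was also lost without Xiangfei replicate 3 or any 1 of the Italia libraries (adjusted p = 0.109 to 0.242, edgeR), while DESeq2 gave 1.63e-06 with all libraries. Most of the 215 called genes likewise lost their call without any 1 of the Italia libraries. Of the 76 PR genes tested, edgeR called 0 higher and 3 lower, with a median log2 fold change of -1.04, and DESeq2 called 3 higher and 22 lower. For this and the lists below, the shares over all genes were 0.412% higher and 0.871% lower with edgeR. With DESeq2 they were 2.57% and 6.91%. GRIP61 is in the PR list by its ripening-related name, and the glucanase is outside it by its wording. The summed level of the list was 30920, 29720 and 40970 FPKM in Xiangfei and 21200, 19220 and 14570 FPKM in Italia, without overlap.

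Other genes of this abundance were higher in Italia. LOC100264738, annotated as early nodulin-75-like, a proline-rich protein, had 753, 148 and 261 FPKM in Xiangfei and 6261, 5885 and 5045 FPKM in Italia. It was the most abundant described gene that was higher in Italia, with a log2 fold change of 3.85 (SE 0.61, adjusted p = 0.0266, edgeR). LOC100268106, which has no description and was singled out after its values were seen, had 7.84, 7.71 and 8.18 FPKM in Xiangfei and 5289, 5183 and 3103 FPKM in Italia, a log2 fold change of 8.99 (SE 0.67, adjusted p = 0.00272, edgeR). The same gene was higher in Italia by 8.91 at EL35 (adjusted p = 0.00469, edgeR) and 9.28 at EL38 (adjusted p = 0.00585, edgeR) on the log2 scale.

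Genes of sugar and acid transport were among the lower genes in Italia. LOC100267921 encodes SWEET14, of a family that moves sugars along their gradient across membranes. It had 606, 337 and 928 FPKM in Xiangfei and 2.36, 12.3 and 15.2 FPKM in Italia, a log2 fold change of -6.35 (SE 0.86, adjusted p = 0.0137, edgeR). HT4, a hexose transporter of lower abundance, had 8.26, 8.2 and 10.1 FPKM in Xiangfei and 0.03, 0.15 and 0.03 FPKM in Italia. Its log2 fold change was -7.29 (SE 0.79, adjusted p = 0.00786, edgeR). These were the members called by edgeR of 46 sugar transport and sucrose metabolism genes tested, with 0 higher and 2 lower and a median of -0.70. DESeq2 called 2 higher and 10 lower. The gene for sucrose-phosphate synthase 1, LOC100232974, had 75.2, 122 and 29.1 FPKM in Xiangfei and 368, 424 and 418 FPKM in Italia, and did not pass the threshold with edgeR (log2 fold change 2.19, adjusted p = 0.0991, edgeR). DESeq2 gave it an adjusted p of 0.00187.

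Of 60 genes for malate, tartrate and vacuolar acid metabolism, edgeR called 4 lower in Italia and 0 higher, with a median of -0.39, and DESeq2 called 6 lower and 3 higher. Over all genes, DESeq2 called 6.91% lower and 2.57% higher. LOC100255398, a tonoplast dicarboxylate transporter, of the family that carries malate into the vacuole, had 61.4, 55.3 and 92.3 FPKM in Xiangfei and 5.39, 5.68 and 5.33 FPKM in Italia (log2 fold change -3.87, SE 0.48, adjusted p = 0.0105, edgeR). A copy outside the reference annotation, BGI_novel_G002533, had 41.7, 32.9 and 73.1 FPKM in Xiangfei and 3.00, 4.73 and 1.92 FPKM in Italia, and the authors' counting could have split reads between these copies. LOC100253505, a kinase that activates phosphoenolpyruvate carboxylase and so the path into malate, had 28.3, 21.1 and 30.3 FPKM in Xiangfei and 5.67, 6.18 and 3.87 FPKM in Italia (log2 fold change -2.60, adjusted p = 0.0384, edgeR). The fourth was LOC100249166, an NADP-dependent malic enzyme, which breaks malate down, with a log2 fold change of -2.49 (adjusted p = 0.0345, edgeR). The lower genes thus held members that store, make and use malate. The summed level of the whole list overlapped between the cultivars, at 4582 to 4721 FPKM in Xiangfei and 4668 to 5174 FPKM in Italia.

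**Figure D2:**
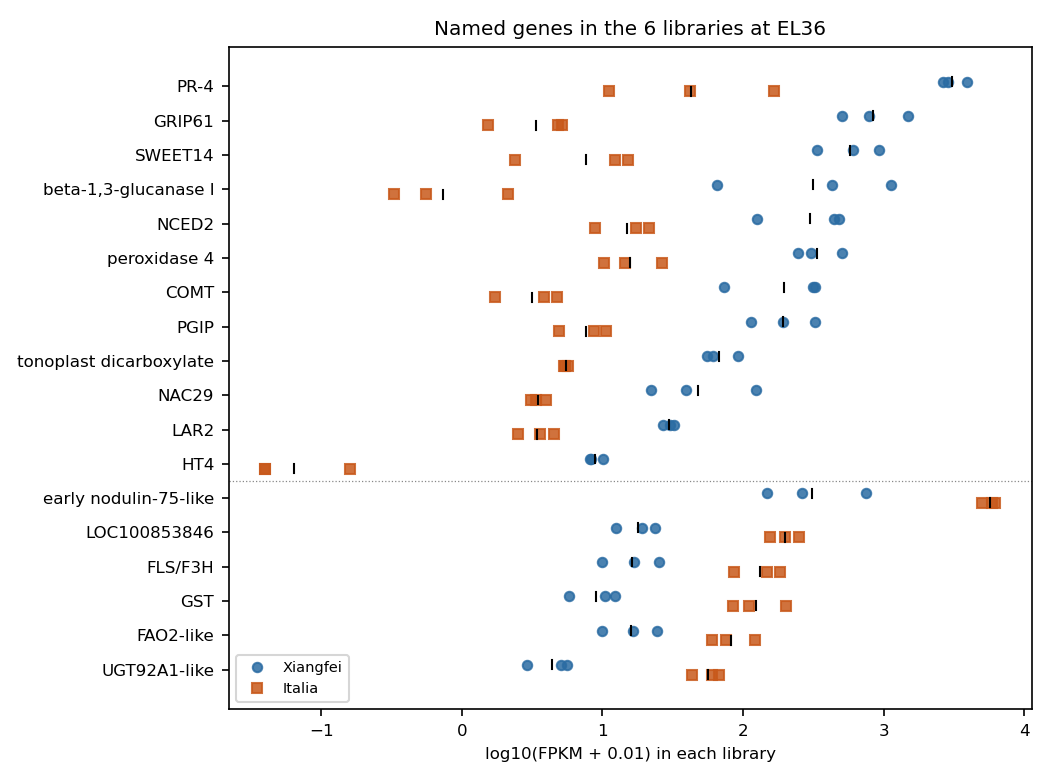
Level of 18 named genes in each of the 6 libraries at EL36 (horizontal axis, log10 of FPKM + 0.01), with circles for Xiangfei, squares for Italia and a black line at the mean of the plotted values. The 12 genes above the dotted line were called lower in Italia and the 6 genes under it were called higher.

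Among hormone genes, NCED2, which makes the precursor of abscisic acid, had 485, 125 and 443 FPKM in Xiangfei and 21.3, 8.88 and 17.3 FPKM in Italia. Its log2 fold change was -4.64 (SE 0.70, adjusted p = 0.0233, edgeR). LOC100248565, an abscisate beta-glucosyltransferase, which converts the hormone to its inactive glucose ester, was also lower, at 103, 72.8 and 80.0 FPKM in Xiangfei against 21.1, 18.5 and 13.7 FPKM in Italia (log2 fold change -2.47, adjusted p = 0.0303, edgeR). The protein phosphatase 2C 15 gene LOC100242244, of a family with members that restrain abscisic acid signalling, was higher, with 3.80, 2.73 and 2.05 FPKM in Xiangfei and 8.22, 19.1 and 21.5 FPKM in Italia (log2 fold change 2.30, adjusted p = 0.0457, edgeR). Of the 76 genes of abscisic acid response and signalling tested, 1 was higher and 1 was lower, with a median of -0.11. The 30 carotenoid genes held 1 higher and 1 lower, NCED2 being the lower one, with a median of -0.32.

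Other hormone lists held few called genes. The auxin efflux carrier PIN3, LOC100268124, had 105, 36.8 and 67.5 FPKM in Xiangfei and 11.8, 15.2 and 11.9 FPKM in Italia (log2 fold change -2.60, adjusted p = 0.0299, edgeR), and it was the 1 called gene of 70 in the auxin list. The ethylene-responsive factor ERF110, LOC100264647, had 73.1, 2.45 and 21.8 FPKM in Xiangfei and at most 0.34 FPKM in Italia, and it was the 1 called gene of 83 in the ethylene list (log2 fold change -8.03, SE 1.47, adjusted p = 0.0425, edgeR). Both called genes of the gibberellin, brassinosteroid and cytokinin list, which had 33 tested, were BRU1 genes. LOC100232905 had 32.1, 27.4 and 23.3 FPKM in Xiangfei and 0.22, 0.80 and 0.08 FPKM in Italia (log2 fold change -6.43, adjusted p = 0.0134, edgeR). LOC100263523 was lower by 2.80 on the log2 scale (adjusted p = 0.0315, edgeR). BRU1 is known in soybean as a wall enzyme of the xyloglucan endotransglucosylase type that brassinosteroids induce, not as an enzyme of hormone synthesis.

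Among transcription factors, LOC104879728, a NAC29 factor, of a family with regulators of senescence and ripening, had 123, 22.3 and 39.4 FPKM in Xiangfei and 3.07, 3.94 and 3.38 FPKM in Italia (log2 fold change -4.19, SE 0.56, adjusted p = 0.0137, edgeR), the 1 called gene of 32 in the NAC list. Of 42 genes for WRKY factors, which are best known in defence and stress, 1 was higher and 3 were lower. WRKY71 (LOC100267688) had 24.8, 11.4 and 15.4 FPKM in Xiangfei and 0.95, 2.98 and 0.63 FPKM in Italia, a log2 fold change of -3.68 (adjusted p = 0.0345, edgeR). WRKY65 (LOC100244564) and WRKY17 (LOC100254807) had log2 fold changes of -2.86 (adjusted p = 0.0449, edgeR) and -2.77 (adjusted p = 0.0455, edgeR). WRKY48 (LOC100260212) went the other way, with 6.87, 3.10 and 2.54 FPKM in Xiangfei and 20.9, 26.1 and 80.2 FPKM in Italia (log2 fold change 3.19, adjusted p = 0.0425, edgeR). Of 44 genes in the MYB list and 46 in the list of MADS-box and bHLH factors, 0 were called by edgeR in either direction, with 10 and 7 at an unadjusted p under 0.05. DESeq2 called 1 higher and 5 lower in the first and 0 and 1 in the second. The most abundant gene in the MYB list, LOC100260765, is annotated as a target of Myb protein and is there by its name only.

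Lignin genes were lower in Italia where edgeR called them with all libraries. Of 74 phenylpropanoid and lignin genes, 0 were higher and 4 were lower, with a median of -1.35. At an unadjusted p under 0.05 there were 5 higher and 37 lower (edgeR), and DESeq2 called 3 higher and 28 lower. Over all genes these shares were 6.24% and 10.3% with edgeR and 2.57% and 6.91% with DESeq2. LOC100232862, a caffeic acid O-methyltransferase that methylates lignin precursors, had 314, 73.1 and 325 FPKM in Xiangfei and 1.70, 4.76 and 3.80 FPKM in Italia (log2 fold change -6.39, SE 0.76, adjusted p = 0.00873, edgeR). LOC100267178, a cinnamoyl-CoA reductase, the first enzyme of the branch into lignin, had 9.99, 13.2 and 11.5 FPKM in Xiangfei and 0.88, 0.99 and 0.81 FPKM in Italia, close within each cultivar (log2 fold change -3.99, SE 0.48, adjusted p = 0.00956, edgeR). LOC100265620, a dirigent protein of the kind that steers the coupling of lignans, was lower by 3.47 on the log2 scale (adjusted p = 0.0406, edgeR). LOC100262421, a cinnamyl alcohol dehydrogenase, had 15.0, 0.71 and 8.36 FPKM in Xiangfei and 0 counts in the 3 Italia libraries. Against a floor of 3 counts over the group it was at least 253-fold lower in Italia. The summed level of the list was 5838, 1106 and 2957 FPKM in Xiangfei, highest in replicate 1, and 784 to 908 FPKM in Italia. LOC100253493, cinnamate 4-monooxygenase, shows that spread in 1 gene, with 553, 18.4 and 92.3 FPKM in Xiangfei and 19.6, 50.6 and 21.3 FPKM in Italia, and was not called by edgeR (adjusted p = 0.181, edgeR). DESeq2 gave it an adjusted p of 0.0131.

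Of the 105 genes for peroxidases and antioxidant enzymes, edgeR called 0 higher and 3 lower in Italia, and DESeq2 called 1 higher and 15 lower. LOC100257005, peroxidase 4, of the class III peroxidases that act in the cell wall, had 244, 303 and 505 FPKM in Xiangfei and 14.4, 26.3 and 10.3 FPKM in Italia (log2 fold change -4.73, SE 0.66, adjusted p = 0.0157, edgeR). Peroxidase 42 (LOC100241814) had 49.98, 32.0 and 32.7 FPKM in Xiangfei and 4.02, 7.01 and 4.82 FPKM in Italia (log2 fold change -3.08, adjusted p = 0.0117, edgeR), and an L-ascorbate oxidase homolog (LOC100249552) had a log2 fold change of -3.73 (adjusted p = 0.0181, edgeR). In the list of lipoxygenases and alcohol enzymes, which make leaf-type volatiles, 26 genes were tested and 2 were lower, the cinnamyl alcohol dehydrogenase above and ADH1, which interconverts ethanol and acetaldehyde. ADH1 had 14.6, 6.72 and 5.78 FPKM in Xiangfei and 1.43, 2.11 and 1.09 FPKM in Italia (log2 fold change -2.52, SE 0.47, adjusted p = 0.0462, edgeR).

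Wall genes went in both directions. Of 55 pectin genes, 1 was higher and 1 was lower. The lower one, LOC100232865, is not a pectin enzyme but a polygalacturonase inhibitor, a wall protein known for blocking fungal pectinases. It had 113, 323 and 191 FPKM in Xiangfei and 4.88, 10.6 and 8.75 FPKM in Italia (log2 fold change -5.07, SE 0.65, adjusted p = 0.0123, edgeR). The higher one, LOC100258559, a non-catalytic polygalacturonase subunit, had at most 0.21 FPKM in Xiangfei and 2.2, 4.84 and 12.4 FPKM in Italia (log2 fold change 6.18, adjusted p = 0.0375, edgeR). Of 82 expansin, xyloglucan and cellulose genes, 2 were higher and 2 were lower. Genes annotated as the xyloglucan galactosyltransferase KATAMARI1 were found on both sides. LOC100263561 had 39.7, 21.7 and 29.3 FPKM in Xiangfei and 2.14, 4.10 and 3.63 FPKM in Italia (log2 fold change -3.44, adjusted p = 0.00956, edgeR). LOC100854486 had 0 counts in the Xiangfei libraries and 6.03, 4.89 and 5.47 FPKM in Italia, at least 197-fold higher. The xyloglucan endotransglucosylase gene LOC100241119 had 22.5, 2.83 and 19.0 FPKM in Xiangfei and 0 counts in Italia, at least 367-fold lower, and the cellulose synthase-like gene LOC100241114 was higher by 3.5 on the log2 scale (adjusted p = 0.0157, edgeR).

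Flavonoid genes were called once in each direction, while most of those at an unadjusted p under 0.05 were lower in Italia. LAR2, leucoanthocyanidin reductase, which makes catechin for condensed tannins, had 26.8, 32.3 and 30.3 FPKM in Xiangfei and 2.49, 4.48 and 3.6 FPKM in Italia (log2 fold change -3.55, SE 0.46, adjusted p = 0.0134, edgeR). LOC100267819, annotated as flavonol synthase/flavanone 3-hydroxylase, had 25.1, 9.89 and 16.8 FPKM in Xiangfei and 148, 86.4 and 184 FPKM in Italia (log2 fold change 2.85, SE 0.48, adjusted p = 0.0315, edgeR). Of the 55 flavonoid and anthocyanin genes tested, 1 was higher and 1 was lower, with a median of -1.16. At an unadjusted p under 0.05 there were 2 higher and 21 lower (edgeR), and DESeq2 called 1 higher and 11 lower. Over all genes these shares were 6.24% and 10.3% with edgeR and 2.57% and 6.91% with DESeq2. LOC100242884 is annotated as an anthocyanidin 3-O-glucosyltransferase (UFGT), the enzyme of the last step to anthocyanins, and its role in colour was not tested. It had 21.6, 46.6 and 43.9 FPKM in green to golden Xiangfei, 10.1, 11.2 and 8.13 FPKM in Italia and a mean of 26.5 FPKM in purple-reddish Zaomeiguixiang at EL36. Between Italia and Xiangfei it did not pass the threshold with all libraries (log2 fold change -2.27, adjusted p = 0.0859, edgeR). Without Xiangfei replicate 1 its adjusted p was 0.00619 (edgeR), and DESeq2 gave 0.00199 with all libraries.

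Described genes that were higher in Italia included conjugating and lipid enzymes. A glutathione S-transferase (LOC100232878) had 12.3, 5.78 and 10.5 FPKM in Xiangfei and 202, 110 and 84.99 FPKM in Italia (log2 fold change 3.64, SE 0.56, adjusted p = 0.0244, edgeR). A glycosyltransferase of the UGT92A1 type (LOC100244929), of the enzymes that attach sugars to small molecules, had 5.60, 5.03 and 2.92 FPKM in Xiangfei and 60.4, 43.6 and 67.2 FPKM in Italia (log2 fold change 3.48, SE 0.43, adjusted p = 0.0105, edgeR). Each was the 1 called gene of its list, of 49 glutathione S-transferases and MATE transporters and of 38 glycosyltransferases, with medians of -0.86 and -0.99. LOC100254904, a long-chain alcohol oxidase, had 24.6, 16.5 and 9.86 FPKM in Xiangfei and 60.5, 75.9 and 121 FPKM in Italia (log2 fold change 2.16, adjusted p = 0.0468, edgeR). The 3-ketoacyl-CoA synthase LOC100259490, which lengthens the fatty acids of waxes, was higher by 2.61 on the log2 scale (adjusted p = 0.0398, edgeR). It was the 1 called gene of 43 for lipid transfer and wax. The most abundant gene of that list pointed the other way and was not called by edgeR with all libraries, a lipid transfer protein (LOC100232872) with 1746, 5290 and 4702 FPKM in Xiangfei and 758, 1028 and 666 FPKM in Italia (log2 fold change -2.64, adjusted p = 0.093, edgeR). Without Xiangfei replicate 1 its adjusted p was 0.00551 (edgeR), and DESeq2 gave 0.00085 with all libraries. LOC100853846, annotated after a surface glycoprotein of the alga Volvox, had 12.5, 19.2 and 23.5 FPKM in Xiangfei and 198, 156 and 252 FPKM in Italia (log2 fold change 3.11, SE 0.53, adjusted p = 0.0342, edgeR).

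With edgeR and all libraries, no tested gene of the lists for monoterpenes and their precursors was called. The lists were matched by words and can miss synthases described in other words. Of 52 matched genes for prenyl diphosphate and terpene synthases, only 12 passed the filter and were tested. Of 10 MEP pathway genes, 15 mevalonate pathway genes, 12 genes for prenyl diphosphate and terpene synthases and 17 Nudix hydrolases tested, edgeR called 0, with 5, 2, 3 and 3 at an unadjusted p under 0.05, and medians of -0.35, -0.40, -1.31 and 0.11. DESeq2 called 1 higher and 2 lower in the MEP list, 0 in the mevalonate list, 1 higher and 2 lower among the synthases and 0 higher and 2 lower among the Nudix hydrolases. LOC100249323, the DXS gene of the highest level, which encodes the entry enzyme of the MEP pathway, had 49.0, 59.7 and 33.6 FPKM in Xiangfei and 17.5, 21.6 and 22.7 FPKM in Italia, without overlap (log2 fold change -1.46, SE 0.39, adjusted p = 0.11, edgeR). Without Xiangfei replicate 1 its adjusted p was 0.0319, and DESeq2 gave 0.00967 with all libraries. LOC100267479, the last enzyme of that pathway, had 249, 92.5 and 56.3 FPKM in Xiangfei and 157, 198 and 242 FPKM in Italia, with overlap (adjusted p = 0.607, edgeR). LOC100241801, a mitochondrial Nudix hydrolase, had 68.6, 44.3 and 74.3 FPKM in Xiangfei and 21.3, 24.5 and 16.8 FPKM in Italia (log2 fold change -1.84, adjusted p = 0.0865, edgeR, and 0.027 without Xiangfei replicate 1). DESeq2 gave it an adjusted p of 0.00378 with all libraries. LOC100254843, a eugenol synthase gene with a mean of 65.3 FPKM in Zaomeiguixiang at EL36, stayed at or under 0.16 FPKM in all 6 libraries and was not tested. Beyond this pathway, a carotenoid cleavage dioxygenase 1 gene (LOC109124287), of the family that makes norisoprenoid aroma compounds, had 0 counts in Xiangfei and 0.67, 1.31 and 1.38 FPKM in Italia, at least 60.5-fold higher.

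**Figure D3:**
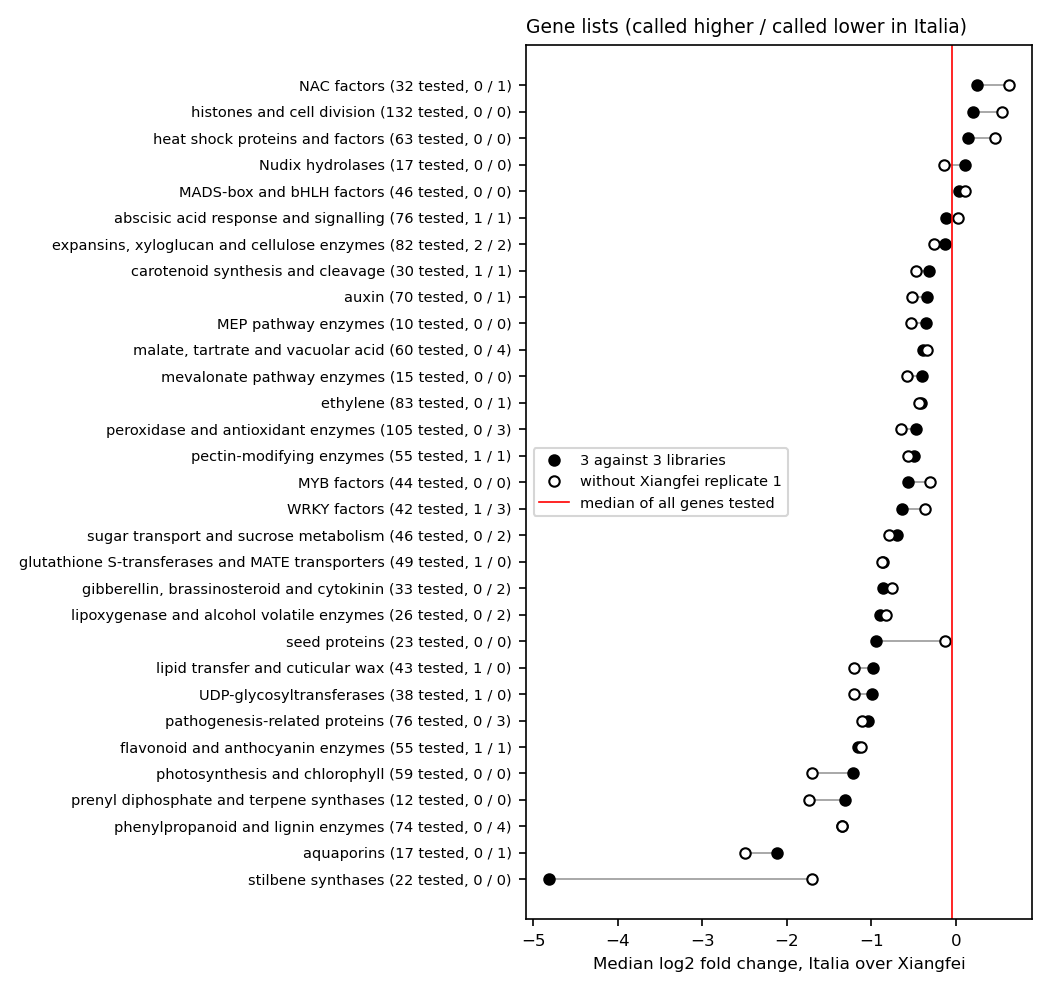
Median log2 fold change of Italia over Xiangfei for 31 gene lists, with 3 libraries against 3 (filled circles) and without Xiangfei replicate 1 (open circles), beside the median of all genes tested (red line, -0.05). Each label gives the genes tested and how many were called higher and lower in Italia. The stilbene synthases move most with that library, from -4.81 to -1.70.

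Some lists moved with Xiangfei replicate 1. The 37 stilbene synthase genes, whose products include resveratrol, summed to 2313 FPKM in Xiangfei replicate 1, 15.5 and 75.8 FPKM in the other Xiangfei libraries and 5.81 to 41.8 FPKM in Italia. Of 22 tested, edgeR called 0, with 17 at an unadjusted p under 0.05, all lower, and DESeq2 called 9 lower. Over all genes, 10.3% were lower at that unadjusted p (edgeR) and DESeq2 called 6.91% lower. Stilbene synthase 6 had 495, 2.06 and 21.1 FPKM in Xiangfei and 2.40, 3.11 and 1.57 FPKM in Italia (log2 fold change -6.02, adjusted p = 0.105, edgeR). DESeq2 gave it an adjusted p of 7.04e-06 although the cultivars overlapped. Photosynthesis genes showed the reverse order, with 1613 FPKM in Xiangfei replicate 1, 6901 and 6848 FPKM in the others and 2496 to 3139 FPKM in Italia. Of 59 tested, 0 were called with all libraries, with 15 at an unadjusted p under 0.05 and 7 lower by DESeq2, and 25 were lower in Italia without that library. The small subunit of Rubisco, LOC100267942, had 233, 1845 and 1898 FPKM in Xiangfei and 615, 548 and 288 FPKM in Italia, and its adjusted p went from 0.328 to 0.0251 without that library (edgeR). Heat shock genes summed to 6028 FPKM in Xiangfei replicate 1 against 1473 to 3873 FPKM in the other 5 libraries, and of 63 tested edgeR called 0, with 7 at an unadjusted p under 0.05 and 3 higher and 4 lower by DESeq2. Of 132 genes for histones and cell division edgeR also called 0, with 14 at an unadjusted p under 0.05, a median of 0.20 and 2 higher and 5 lower by DESeq2.

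Other lists gained calls without Xiangfei replicate 1, as did the genes as a whole. Of all 17253 genes tested in that fit (edgeR), 1.73% were called higher and 4.37% lower. No list was tested against these shares, so the counts alone do not set a list apart. Lipid transfer and wax genes held 2 higher and 13 lower of 45 tested. Peroxidases and antioxidant enzymes held 1 and 12 of 108, and flavonoid enzymes 1 and 11 of 57. Phenylpropanoid and lignin enzymes then held 2 higher and 11 lower of 77, and expansin, xyloglucan and cellulose genes 3 and 11 of 87. Sugar genes held 2 and 10 of 47, aquaporins 0 and 10 of 17, and PR proteins 0 and 9 of 79. Auxin genes held 2 and 8 of 73, acid genes 2 and 6 of 60, and pectin genes 2 and 6 of 57. Glutathione S-transferases and MATE transporters held 1 and 6 of 51, and carotenoid genes 2 and 5 of 31. Ethylene genes held 0 and 5 of 85, and the list led by the BRU1 genes 1 and 4 of 36. The list of lipoxygenases and alcohol enzymes held 0 and 4 of 26, and the glycosyltransferases 1 and 3 of 42. Histones and cell division held 4 and 3 of 135, and heat shock genes 3 and 0 of 64. Stilbene synthases held 0 and 2 of 22, and abscisic acid response 1 and 2 of 78. In the remaining lists no more than 3 genes were called in either direction.

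Aquaporins, the water channels of the plasma membrane and tonoplast, had the lowest median after the stilbene synthases, at -2.11 over 17 genes tested and -2.49 without Xiangfei replicate 1. The called one, LOC100263543 (NIP1-1), was weakly expressed, with 4.45, 5.42 and 6.79 FPKM in Xiangfei and 0.44, 0.82 and 0.67 FPKM in Italia (log2 fold change -3.44, adjusted p = 0.0463, edgeR). The abundant members were not called by edgeR with all libraries, but DESeq2 called 1 higher and 12 lower of the 17. PIP1;3 had 3002, 10152 and 13196 FPKM in Xiangfei and 3593, 1992 and 2414 FPKM in Italia, with overlap (adjusted p = 0.221, edgeR). Without Xiangfei replicate 1 its adjusted p was 0.0264 (edgeR), and DESeq2 gave 0.0325 with all libraries. PIP1;2 had 1003, 327 and 794 FPKM in Xiangfei and 200, 141 and 217 FPKM in Italia, without overlap (log2 fold change -2.11, SE 0.50, adjusted p = 0.0875, edgeR). Its adjusted p was 0.0435 without that library (edgeR) and 0.00144 with DESeq2 and all libraries. Not all abundant members differed as much. PIP2;3 and PIP2;2, both of a higher mean level than PIP1;2, overlapped between the cultivars. Their log2 fold changes were -0.68 (adjusted p = 0.683, edgeR) and -0.51 (adjusted p = 0.832, edgeR).

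Summed seed markers overlapped between the cultivars, and pollen and flower markers did not. The 54 genes matched as seed proteins summed to 1053, 453 and 478 FPKM in Xiangfei and 301, 607 and 254 FPKM in Italia, and of 23 tested edgeR called 0, with 7 at an unadjusted p under 0.05 and 4 lower by DESeq2. Of the 54, 22 are GEM-like proteins that match by name only, and the remaining genes summed to 344 to 717 FPKM in Xiangfei and 197 to 502 FPKM in Italia, with a median log2 fold change of -2.08 over the 15 tested. The 11S globulin seed storage protein 2 gene (LOC100260054) had 327, 60.9 and 65.1 FPKM in Xiangfei and 16.4, 5.67 and 0 FPKM in Italia (adjusted p = 0.211, edgeR). LOC100252810, a late embryogenesis abundant protein of the kind that builds up in drying seeds, had 86.8, 2.96 and 13.5 FPKM in Xiangfei and 0.83, 0.19 and 1.88 FPKM in Italia (adjusted p = 0.0842, edgeR, and 1.69e-05 with DESeq2). Neither gene overlapped between the cultivars, but both were picked after their values were seen. The most abundant gene of the list, LOC100256985 (11S globulin subunit beta), did overlap. It had 133, 253 and 193 FPKM in Xiangfei and 162, 128 and 135 FPKM in Italia (log2 fold change -0.75, adjusted p = 0.493, edgeR). Another late embryogenesis abundant protein gene, Lea14-A (LOC100241458), had 36.8, 27.6 and 27.2 FPKM in Xiangfei and 29.7, 334 and 19.0 FPKM in Italia, so 1 Italia library carried much of the overlap of the sums. The 38 pollen and flower genes did not overlap, with 1205 to 1350 FPKM in Xiangfei and 264 to 481 FPKM in Italia. Most of that sum in Xiangfei came from LOC100244652, named after a pollen protein, which had 855, 993 and 939 FPKM in Xiangfei and 124, 259 and 172 FPKM in Italia (log2 fold change -2.64, SE 0.47, adjusted p = 0.0384, edgeR). It was the 1 called gene of 10 tested there. The part of these tissues in the differences was not tested. In bulk berries, fewer cells of a type and less RNA per cell cannot be told apart.

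Some genes were detected in 1 cultivar only at EL36. With 0 counts in all 3 Xiangfei libraries and at least 50 in each Italia library there were 16 genes, and with the reverse pattern 10, all of them called. In the 6 Xiangfei libraries of the other stages 8 of the 16 stayed at 0 counts, and in the 6 Italia libraries 2 of the 10 did. Among the 16, LOC100262339 (no known function) had 274 to 505 counts in the Italia libraries, 319 to 1098 in the other Italia libraries and 0 in all 9 Zaomeiguixiang libraries, and was at least 362-fold higher. LOC100854305, related to the co-chaperone HOP3, had 302 to 638 counts and was at least 428-fold higher, but reached 36 counts in Xiangfei libraries of the other stages. Genes annotated as NAGS1, an acetyltransferase of arginine synthesis, were found both as LOC109121380 with 363 to 428 counts and as BGI_novel_G001888 with 93 to 146. In Xiangfei libraries of the other stages LOC109121380 reached 49 counts and BGI_novel_G001888 stayed at 0. Among the 10, BGI_novel_G002268, annotated as the Sec61 alpha subunit of the protein channel of the endoplasmic reticulum, had 255 to 936 counts in Xiangfei and was at least 752-fold lower in Italia, but reached 401 counts in Italia libraries of the other stages. LOC100248998, a homolog of the decapping nuclease DXO, had 57 to 299 counts in Xiangfei and 0 in all 9 Italia libraries. A count of 0 allows up to 3 counts, between 1.22e-05% and 1.32e-05% of a library, and covers counting error only. Reads of alleles or copies that differ from the reference, or that RSEM assigned to a near copy, cannot be told apart from missing transcripts in these files.

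Without being at 0, other genes were near absent in 1 cultivar. LOC100242242, a 60S ribosomal protein L26-1 gene, had 363, 306 and 434 FPKM in Xiangfei and 1.99, 0.87 and 4.64 FPKM in Italia (log2 fold change -7.51, SE 0.78, adjusted p = 0.00681, edgeR). In Zaomeiguixiang at EL36 its mean was 2.25 FPKM. BGI_novel_G002513, similar to a UV-B-induced chloroplast protein, had 0.76, 0.20 and 0.31 FPKM in Xiangfei and 103, 74.6 and 64.7 FPKM in Italia (log2 fold change 7.42, SE 0.60, adjusted p = 0.00272, edgeR). LOC100255688, a flavin-containing monooxygenase, had 3 counts in Xiangfei against 2156 in Italia, a ratio of 610 with a 95% counting interval of 208 to 2960.

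The same contrast was then read at the other stages, whose libraries are not shared with EL36. Italia had less soluble solids than Xiangfei at EL35 and EL38 too in the measurements of the study. Cultivar and ripeness thus cannot be told apart at those stages either. Of the 69 genes higher at EL36, 65 were tested at EL35 and 59 of these had a positive log2 fold change, 24 of them called. Of all genes tested at EL35, 0.446% were called higher. At EL38, 65 of 67 were positive and 36 were called, while 0.906% of all genes tested there were called higher. Of the 146 lower genes, 127 of 136 were negative at EL35 with 45 called, and 131 of 144 were negative at EL38 with 49 called. Of all genes tested, 1.35% were called lower at EL35 and 1.74% at EL38. In either direction, 1.8% of the genes tested at EL35 and 2.64% of those at EL38 were called, and 55.1% and 49.9% of the genes tested at both EL36 and the other stage were positive. In all, 21 higher and 29 lower genes were called in the same direction at all stages, and 30 higher and 81 lower genes were called at EL36 alone.

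**Figure D4:**
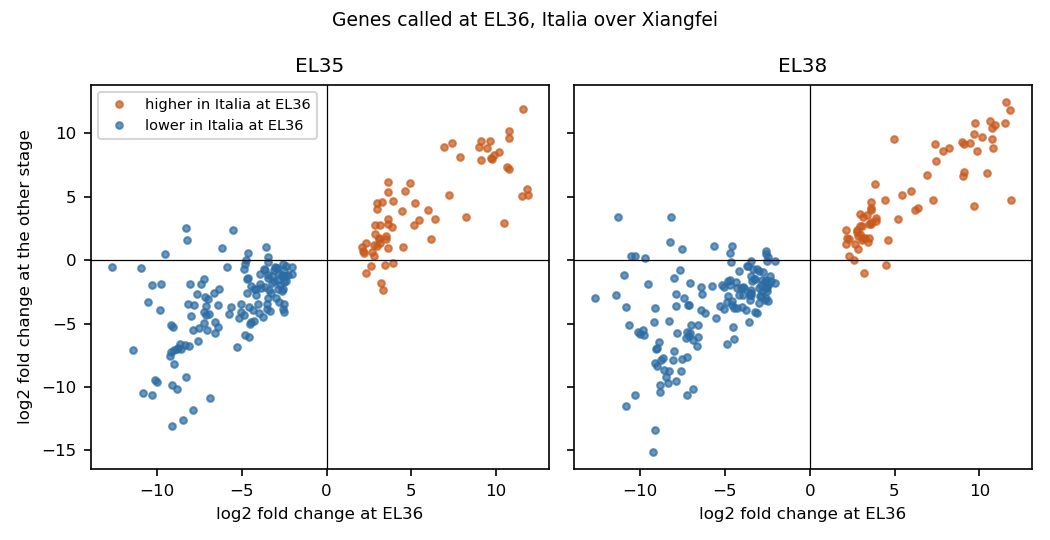
Log2 fold change of Italia over Xiangfei at EL35 (left) and EL38 (right) against that at EL36, for the genes called at EL36 and tested at the other stage. Genes higher in Italia at EL36 are orange and lower ones are blue. Most points lie in the quadrants of equal sign, with 59 of 65 and 127 of 136 at EL35.

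The courses of single genes over the stages took different forms. GRIP61 had means of 587 and 929 FPKM in Xiangfei at EL35 and EL36, and 61.0, 41.3 and 3373 FPKM in the Xiangfei libraries at EL38, against means of 5.07, 3.82 and 4.37 FPKM in Italia. It was called at EL35 (log2 fold change -6.81, adjusted p = 0.00159, edgeR) but not at EL38, where 1 Xiangfei library stood far above the others (log2 fold change -7.85, adjusted p = 0.0627, edgeR). LOC100267178, the cinnamoyl-CoA reductase, had log2 fold changes of -4.14 at EL35 (adjusted p = 0.00922, edgeR) and -3.71 at EL38 (adjusted p = 0.0308, edgeR). NCED2 was high in Xiangfei at EL36 alone, with means of 23.6, 351 and 41.9 FPKM in Xiangfei and 9.51, 15.8 and 46.9 FPKM in Italia, and log2 fold changes of -1.43 at EL35 (adjusted p = 0.493, edgeR) and -0.12 at EL38 (adjusted p = 0.928, edgeR). SWEET14 (LOC100267921) was lowest in Italia at EL36, with means of 549, 624 and 366 FPKM in Xiangfei and 113, 9.97 and 75.6 FPKM in Italia. LAR2 had means of 22.5, 29.8 and 26.5 FPKM in Xiangfei and 54.3, 3.52 and 6.30 FPKM in Italia, where the EL35 libraries ran from 2.5 to 155.64 FPKM. Whether these contrasts differ between stages was tested directly in 1 fit of 18 libraries. For EL36 against EL35 the difference was called for 4 of 19734 genes (0.0203%), none of which is named above, and for EL36 against EL38 for 0, with 1730 (8.77%) at an unadjusted p under 0.05 (edgeR). For NCED2, SWEET14 and LAR2 a change of the contrast with stage was thus not shown.

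**Figure D5:**
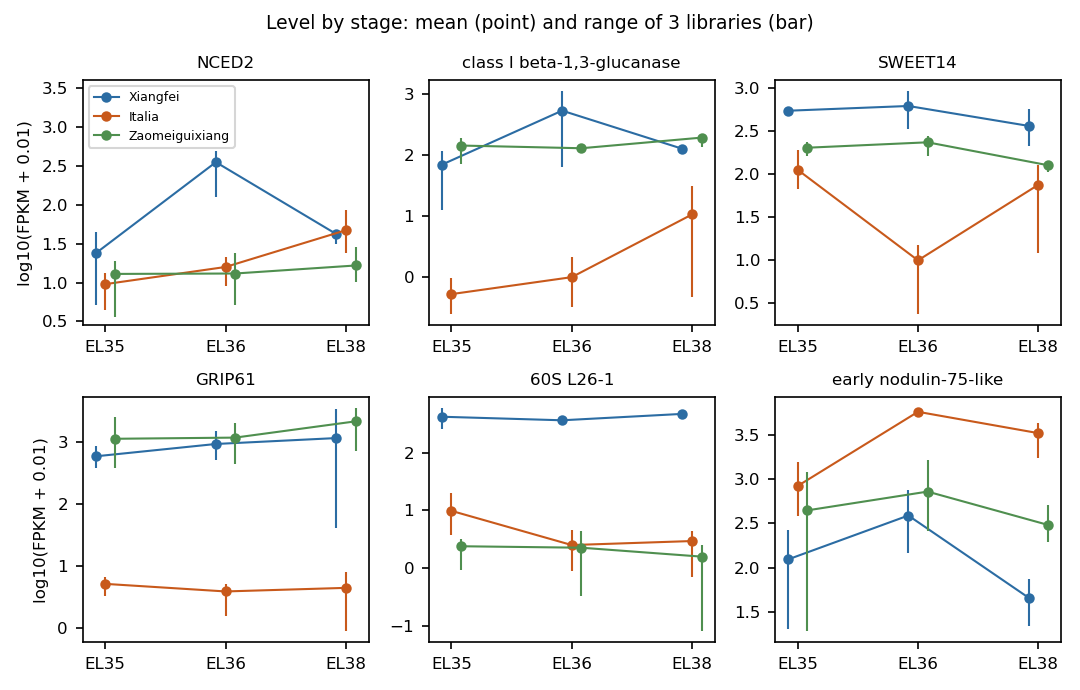
Level of 6 genes at EL35, EL36 and EL38 in Xiangfei, Italia and Zaomeiguixiang (vertical axis, log10 of FPKM + 0.01). Points are means of 3 libraries and bars span the lowest to the highest library. NCED2 reaches 351 FPKM in Xiangfei at EL36 only, and the means of GRIP61 in Italia lie between 3.82 and 5.07 FPKM.

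The genes called between the cultivars were also read in Zaomeiguixiang, whose libraries enter neither group. From EL35 to EL36 in that cultivar, the 69 genes gave 28 positive and 28 negative log2 fold changes among 56 tested, with 3 and 5 called, and the 146 genes gave 72 and 57 among 129, with 8 and 11 called. Over all genes tested in both comparisons 47.2% were positive, and 3.2% of the genes tested there were called, 1.42% higher and 1.78% lower. At EL36 itself the mean level of Zaomeiguixiang, on log2(FPKM + 1), lay nearer to Italia for 35 of the 69 higher genes and for 47 of the 146 lower genes, and nearer to Xiangfei for 34 and 99. PR-4 (LOC100255405) had a mean of 1186 FPKM there, GRIP61 of 1178 FPKM and NCED2 of 13.0 FPKM, so the first pair lay with Xiangfei and NCED2 with Italia.

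In the order of genes of the assembly ASM3070453v1, 5 of 10615 pairs of adjacent tested genes had both members called. Early nodulin-75-like (LOC100264738) stood beside LOC100244140, a gene with no description that had 340, 192 and 207 FPKM in Xiangfei and 3092, 1983 and 2681 FPKM in Italia (log2 fold change 3.24, adjusted p = 0.0204, edgeR). LOC104878831, annotated as the disease resistance protein RGA3, stood beside LOC104878832, which has no known function, with log2 fold changes of -8.81 (adjusted p = 0.00786, edgeR) and -10.84 (adjusted p = 0.0134, edgeR). The amino acid permease 3 gene (LOC100250992) and its neighbour LOC104879935 were both higher in Italia, by at least 83.4-fold and by 5.96 on the log2 scale (adjusted p = 0.0414, edgeR). NCED2 stood beside a pyruvate dehydrogenase subunit gene (LOC100259931) that went the other way, at 0.37, 0.24 and 0.33 FPKM in Xiangfei and 3.5, 3.53 and 6.93 FPKM in Italia (log2 fold change 3.64, adjusted p = 0.0375, edgeR). Pairs of similar neighbours can share reads.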

How the data were processed

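Whole berries were sampled by the authors, RNA was selected with oligo(dT) beads, and the libraries were run on an Illumina sequencer. Per the methods, reads were cleaned and mapped to grapevine genome V2 with HISAT to find unannotated transcripts. These joined the reference set, against which Bowtie2 and RSEM quantified each library. The deposited tables hold expected counts (not normalized), FPKM (scaled by the authors to length and depth) and mean transcript lengths, another deposited value that was not tested. Genes missing from a table were set to 0. Of 27096 genes, 2506 lie beyond the reference, and 22426 of 24590 reference genes matched the RefSeq gene table, which gave gene order only.

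Counts were rounded and tested in R 4.3.3 with edgeR 4.0.16 (quasi-likelihood, TMM, default filter) on 6 libraries, or 18 for interactions. The alternative tool was DESeq2 1.42.0, which the study used. An SE is the fitted log2 fold change, without its sign, divided by the root of F, and is rough where a group is near 0. Folds against a group at 0 were taken against 3 counts over the group. Per the methods, the berries came from 3 vines and the replicates are biological, each a separate pool of berries, but whether each replicate was 1 vine is not given in the sources used here. The p-values measure the spread between these pools. Other tools were Python 3.11.15, with scipy 1.17.1, numpy 2.4.6, pandas 2.3.3 and matplotlib 3.10.9.

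Groups came from the cultivar and stage labels. Members and lists were chosen with earlier results of these data known. Named genes were, in each direction, the 6 of the largest change, the 6 of the highest FPKM, up to 3 called members of each of 31 lists (or the most abundant member) and up to 4 at 0 in 1 cultivar, with a DXS gene, a UFGT gene and LOC100254843, 75 in all. Lists were matched by words of the gene descriptions. Named after their values were seen were LOC100268106, LOC100244140 and the other neighbours, the aquaporins PIP1;3, PIP1;2, PIP2;3 and PIP2;2, LOC100232872, LOC100232974, LOC100249166, LOC100253493, LOC100248998, the seed genes LOC100260054, LOC100252810 and LOC100241458, the 4 genes that differed between stages and the genes under other observations. Alternatives were DESeq2, its size factors, stricter thresholds, no filter, reference genes only, 9 or 27 libraries in 1 fit, the replicate number as a block, and each library left out in turn, with a pseudocount of 0.1 or a minimum of 1 FPKM for the correlations. Sequences were not used here.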

Additional observations from a re-analysis of the deposited data

Results flagged for a closer look

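For 4 genes the contrast between Italia and Xiangfei at EL36 differed from that at EL35, by the test of the interaction with edgeR over 19734 genes. In each of them Italia was far lower at EL35 and came closer to, or above, Xiangfei at EL36. LOC100260154, annotated as a phenylalanine N-monooxygenase, had 11.0, 18.8 and 8.29 FPKM in Xiangfei and 0, 0 and 0.06 FPKM in Italia at EL35, and 10.6, 13.8 and 6.61 FPKM against 5.2, 3.82 and 2.54 FPKM at EL36, a difference between the log2 fold changes of 7.62 (adjusted p = 0.00607, edgeR). LOC100245885, annotated as an L-tryptophan--pyruvate aminotransferase, of the enzymes that start auxin synthesis, had 167, 186 and 88.4 FPKM in Xiangfei and 1.22, 4.62 and 3.08 FPKM in Italia at EL35. At EL36 it had 411, 201 and 87.1 FPKM against 217, 178 and 97.6 FPKM, a difference of 5.16 (adjusted p = 0.0394, edgeR). LOC100250812, a leucine-rich repeat receptor-like kinase, had 40.2, 25.6 and 21.2 FPKM against 4.62, 2.81 and 2.77 FPKM at EL35, and 2.58, 3.82 and 2.68 FPKM against 7.79, 16.2 and 14.7 FPKM at EL36, a difference of 4.84 (adjusted p = 0.0394, edgeR). LOC100245312, which has no known function, had 136, 119 and 114 FPKM against 10.6, 10.8 and 12.1 FPKM at EL35, and 80.2, 35.9 and 25.8 FPKM against 23.1, 54.4 and 53.6 FPKM at EL36, a difference of 3.28 (adjusted p = 0.0394, edgeR).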

How the results depend on the processing

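Counts of called genes depended on the test and on single libraries. Each of the 215 genes kept its direction in every setting that gave it a value. These settings reuse the libraries in which the genes were picked, so their direction could hardly change. Genes higher and lower in Italia at EL36 numbered 483 and 1298 with DESeq2, 130 and 440 with DESeq2 at the threshold of the study, 0 and 0 with edgeR at that threshold, 159 and 586 without a filter, 378 and 704 with all 27 libraries and 190 and 419 with the 9 EL36 libraries in 1 fit. With each replicate left out they ran from 2 to 299 and from 2 to 754. Of the 61 called genes that the rule named, 56, 51 and 60 were no longer past the threshold without Italia replicate 1, 2 or 3, and 1, 17 and 35 without Xiangfei replicate 1, 2 or 3. The counts moved by under 1.5 times with DESeq2 size factors and with reference genes only. The difference of EL36 minus EL35 was higher and lower for 31 and 5 genes without a filter and for 102 and 37 genes with all libraries, and ran from 1 to 49 and from 0 to 7 with each replicate left out. That of EL36 minus EL38 gave 6 and 13 genes with all libraries and 0 and 1 without a filter, and ran from 0 to 6 and from 0 to 40. The replicate block left 0 genes higher and 0 lower at EL36, and 1 higher for EL36 minus EL35. The same-numbered libraries deviated with correlations of -0.335, -0.267 and -0.113, so the numbers do not pair them. Log2 fold changes of 4 genes that were not called changed sign with 1 library left out, from -0.16 to 0.09 for LOC100240809, from -0.91 to 0.17 for LOC100254725, from -0.11 to 0.39 for LOC100260765 and from -0.45 to 2.26 for LOC100241458. The causes were not tested. With 3 libraries per group and a common dispersion of 0.402, the smallest change called was 2.05 on the log2 scale.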

Other observations

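Transporters of ions and nitrogen compounds, grouped after their values were seen and so without a test, held further called genes. Of 92 ion and nutrient transporters tested, 3 were higher and 5 were lower in Italia (8.70%, against 1.28% of all genes). Zinc transporter 8 (LOC100255284) had 99.7, 149 and 99.1 FPKM in Xiangfei and 5.30, 7.77 and 4.70 FPKM in Italia (log2 fold change -4.51, adjusted p = 0.00786, edgeR), and it was lower by 5.07 at EL35 (adjusted p = 0.00678, edgeR) and 5.28 at EL38 (adjusted p = 0.00701, edgeR). A sulfate transporter (LOC100257654) had 340, 267 and 254 FPKM in Xiangfei and 28.9, 61.4 and 19.6 FPKM in Italia (log2 fold change -3.22, adjusted p = 0.0286, edgeR). The vacuolar iron transporter 1 gene (LOC100262710) went the other way, with at most 0.09 FPKM in Xiangfei and 9.04, 10.2 and 13.7 FPKM in Italia (log2 fold change 8.23, adjusted p = 0.00826, edgeR).

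A further group, also put together after its values were seen, joined purine, adenine/guanine and ureide permeases with uridine nucleosidases and purple acid phosphatases. Of its 31 genes tested, 0 were higher and 5 were lower (16.1%, against 1.28% of all genes). As a mixed group it does not give a result for purines alone. The purine transporter AZG1 (LOC100263955) had 110, 69.8 and 176 FPKM in Xiangfei and 10.6, 10.3 and 3.23 FPKM in Italia (log2 fold change -4.16, adjusted p = 0.0325, edgeR). Uridine nucleosidase 1 (LOC100266594), which splits uridine, had 36.7, 16.6 and 12.0 FPKM in Xiangfei and 2.24, 2.34 and 3.09 FPKM in Italia (log2 fold change -3.2, adjusted p = 0.0137, edgeR). Of 305 disease resistance genes, 4 were higher and 2 were lower (1.97%).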
